A study of Mus musculus with 4 samples.

Results

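Interneurons born in the caudal ganglionic eminence (CGE) were represented here by 400 of 19015 droplet barcodes with at least 500 detected genes, out of 19237 barcodes in all. The cells came from cortex of C57BL/6 mice at E16.5, in 4 libraries of 1 mouse each. The genotypes compared were HET with 122 and 101 member barcodes (HET 1 and HET 2) and COP1 KO with 80 and 97 (COP1 KO 1 and COP1 KO 2). The labels do not say which allele the HET mice carry, and the sample titles of the COP1 KO mice read CKO with no promoter or Cre driver named. The replicate numbers only name the libraries, and no litter or preparation day is given. The labels call the samples separate mice, and each genotype had 1 library with Y-linked transcripts and 1 without.

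A barcode was a member when it held at least 1 UMI (a count of 1 captured RNA molecule) of 2 or more of the markers Adarb2, Prox1, Sp8, Htr3a and Nr2f2, and at least 1 UMI of Dlx1, Dlx2, Gad1 or Gad2. It also had to hold no UMI of Lhx6, Neurod6, Drd2, Adora2a, Isl1 or Ebf1, and to show at most 1 of 6 genes of dividing cells (Mki67, Top2a, Cdk1, Ccnb1, Cenpf, Ube2c). The levels and shares of those genes therefore describe the choice and are not findings.

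As background, cortical interneurons arise in the ventral forebrain and migrate into the cortex before birth. Those of the medial ganglionic eminence (MGE) keep the transcription factor Lhx6 and later make somatostatin or parvalbumin. Those of the CGE lack Lhx6, use the transcription factors Prox1, Sp8, Nr2f2 and Npas1, and carry the ionotropic serotonin receptor subunit Htr3a. They later become Vip, Reln and Cck cells of the upper layers. The neighbouring dorsal lateral ganglionic eminence gives rise to olfactory bulb interneurons that share Sp8 and the Dlx genes but express Meis2 and Tshz1. COP1 recognises proteins, c-JUN and ETS family factors among them, that its ubiquitin ligase complex then tags for degradation.

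The 4 libraries held 28049007 to 28988265 counts. CGE-type barcodes had a median of 3018.5 and 3221 counts in HET 1 and HET 2 and of 2443 and 3061 in COP1 KO 1 and COP1 KO 2, so COP1 KO 1 was the shallowest. Their summed counts per library were 391613, 354170, 225844 and 343522 in the same order. Libraries shared 22 to 40 barcode sequences per pair. No member was a member in 2 libraries, and 5 member barcodes occurred in any other library. A doublet score over 0.25 was found in 1 member.

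Members made up 2.66% (exact 95% binomial interval 2.21% to 3.17%) of the barcodes in HET 1 and 2.31% (1.88% to 2.80%) in HET 2. The shares were 1.52% (1.20% to 1.88%) in COP1 KO 1 and 2.03% (1.65% to 2.47%) in COP1 KO 2. Both COP1 KO libraries lay below both HET libraries, by 0.49 on the log2 scale, with means of 2.48% ± 0.248 and 1.77% ± 0.363 (SD, n = 2 each). The two-sided exact permutation test gave p = 0.33, the smallest that 2 libraries against 2 allow. These intervals cover counting error only.

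Lhx6-positive interneurons, chosen by an Lhx6 UMI, the same Dlx or Gad condition and no requirement on CGE markers, were also a smaller share of the COP1 KO libraries. They made up 5.43% and 5.46% in HET 1 and HET 2 and 4.02% and 4.73% in COP1 KO 1 and COP1 KO 2. Among CGE-type and Lhx6-positive barcodes together, the CGE-type share was 32.9% and 29.7% in HET, against 27.4% and 30.0% in COP1 KO. The groups overlapped on that scale (exact permutation p = 0.667), and 2 libraries against 2 cannot show that the shares are equal. Lhx6-negative barcodes with a Dlx or Gad UMI and fewer than 2 CGE markers are not part of that total.

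With at least 3 markers required, the shares were 1.42% and 1.12% in HET, against 0.531% and 0.753% in COP1 KO. Marker number depends on depth. When members' counts were thinned to 2000 per barcode, those still showing at least 3 markers were 0.872% and 0.549% of HET barcodes and 0.467% and 0.525% of COP1 KO barcodes. At equal depth HET 2 and COP1 KO 2 thus stood close together, and HET 1 alone lay well above. The whole rule applied to thinned counts gave 2.09% and 1.71% in HET, against 1.26% and 1.45% in COP1 KO, again without overlap.

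**Figure D1:**
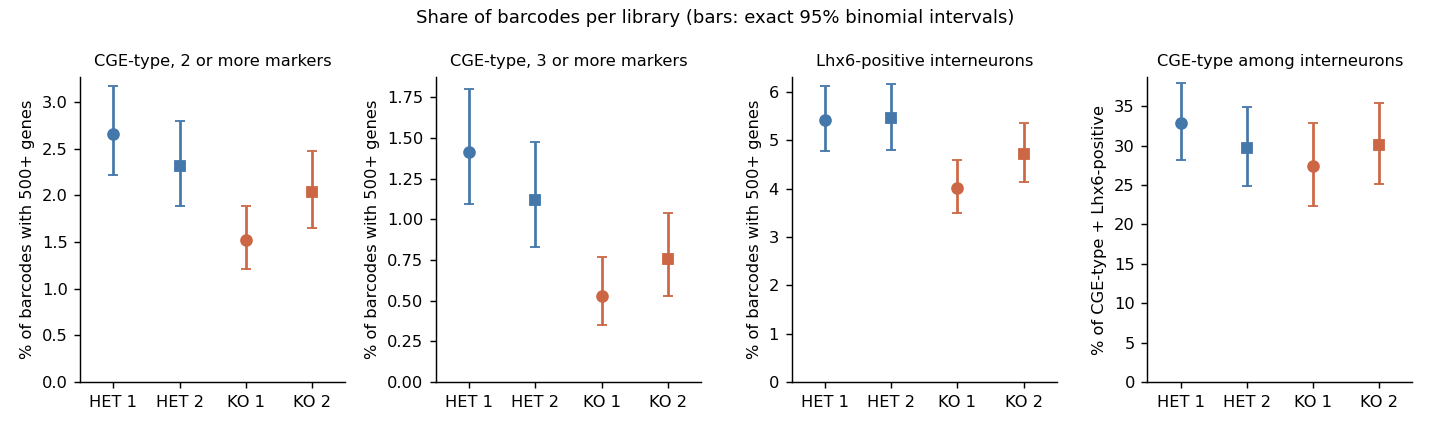
Share of barcodes (%, y axis) per library for CGE-type barcodes with 2 or more and with 3 or more markers, for Lhx6-positive interneurons, and for CGE-type barcodes among both interneuron classes; blue points are HET, orange points COP1 KO (KO), circles replicate 1 and squares replicate 2, and bars exact 95% binomial intervals. The first 3 panels show both COP1 KO libraries below both HET libraries, and in the last panel the groups overlap between 27.4% and 32.9%.

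The markers chose the members, so their shares are given as a description. Nr2f2, an orphan nuclear receptor, was detected in 71.3% and 64.4% of members in HET 1 and HET 2 and in 82.5% and 78.4% in COP1 KO 1 and COP1 KO 2. Sp8, a zinc finger factor, was detected in 63.1% and 70.3% against 51.2% and 52.6%. Htr3a was detected in 59.8% and 57.4% against 45% and 41.2%. Nr2f2 was thus the marker found in more COP1 KO members, and Sp8 and Htr3a were found in more HET members.

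Prox1, a homeodomain factor, was found in 55.7% and 51.5% of HET members and in 57.5% and 53.6% of COP1 KO members. Adarb2, an RNA-editing enzyme relative, was the rarest at 32.0% and 23.8% against 11.2% and 25.8%. Free RNA can place a UMI in any droplet, so the same shares were read in Neurod6-positive excitatory neurons, which were deeper (medians of 5030 to 6180.5 counts). There Htr3a was found in 0.0472% to 0.276%, Sp8 in 0.753% to 1.15%, Prox1 in 1.39% to 2.64% and Nr2f2 in 16.8% to 18.1%. Among the markers listed for that class, Nr2f2 was the least selective by that measure, which cannot tell free RNA from expression in those cells.

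At an equal depth of 2000 counts, Htr3a was found in 50.0% and 45.5% of HET members and in 41.0% and 36.1% of COP1 KO members. Sp8 was then at 50.8% and 53.5% against 47.4% and 45.4%, and Nr2f2 at 54.1% and 52.5% against 71.8% and 54.6%. The gaps in Htr3a and Sp8 both narrowed with thinning, and neither marker overlapped between genotypes. Nr2f2 did not overlap either, but its larger shares were those of COP1 KO. All of these are rule genes, and the members were chosen on counts before thinning. The shares at equal depth therefore still describe the choice and do not test a genotype difference.

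**Figure D2:**
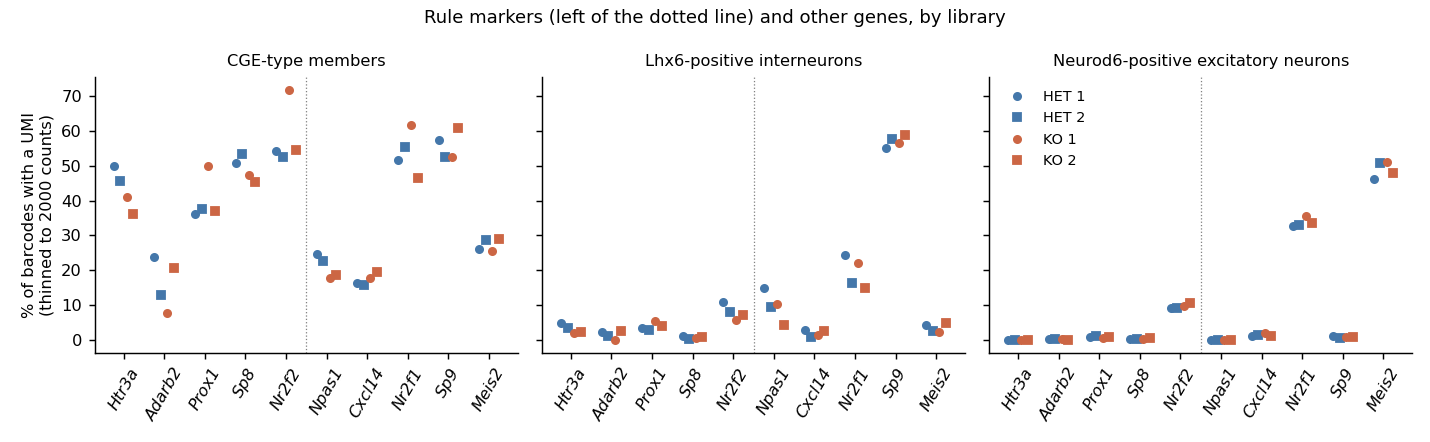
Share of barcodes with at least 1 UMI (%, y axis), after thinning to 2000 counts, for the rule's 5 markers (left of the dotted line) and 5 other genes in CGE-type members, Lhx6-positive interneurons and Neurod6-positive excitatory neurons; each point is a library (blue HET, orange COP1 KO, marked KO; circles replicate 1, squares replicate 2). Htr3a lies between 36.1% and 50.0% in CGE-type members and below 5% in both other classes, while Meis2 reaches 46.2% to 51.1% in excitatory neurons.

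Genes of the CGE programme that the rule did not use separated members from Lhx6-positive interneurons in levels. Levels are given as CPM, a gene's counts in a class scaled to a fixed total of the class's counts in that library. Nr2f1, a close relative of Nr2f2, ran from 467 to 629 CPM in the 4 CGE-type sums and from 99.8 to 191 CPM in the Lhx6-positive sums. Npas1, a helix-loop-helix factor of CGE cells, ran from 124 to 218 CPM against 34.6 to 94.5 CPM. Neither range overlapped the other. The classes were cut by interneuron genes, so these differences carry no test.

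The neurexophilin Nxph1, typical of MGE cells, was at 35.6 to 79.3 CPM in CGE-type sums and at 441 to 624 CPM in Lhx6-positive sums. The chemokine Cxcl14 was at 141 to 201 CPM in members and at 17.0 to 57.8 CPM in Lhx6-positive interneurons. The nuclear factor Nfib was at 818 to 1253 CPM against 136 to 185 CPM, and its relative Nfix at 532 to 791 CPM against 48.3 to 76.5 CPM. Both nuclear factors were also high in excitatory neurons, at 977 to 1183 CPM for Nfib and 1389 to 1613 CPM for Nfix. They set CGE-type members apart from Lhx6-positive interneurons only.

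Genes of mature CGE subtypes were close to absent. Vip was found in 1 of 122 members of HET 1 and in none of the others, where a count of 0 allows up to 2.97% in HET 2, 3.75% in COP1 KO 1 and 3.09% in COP1 KO 2. Lamp5 and Ndnf were found in at most 2.50% of members in any library, and no UMI of Sncg or Htr2c was found in the class. Reln, the secreted guidance protein, was found in 5% to 10.7% of members.

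Meis2 and Tshz1, genes of the dorsal lateral ganglionic eminence, were found in part of the members. Meis2 is not selective for that lineage in this tissue. After thinning to 2000 counts it was also common in Neurod6-positive excitatory neurons, as the plot of shares after thinning shows. A UMI of Meis2 therefore does not by itself place a member in that lineage. Meis2 was found in 29.5% and 30.7% of members in HET, against 30.0% and 35.1% in COP1 KO, and Tshz1 in 20.5% and 25.7% against 26.2% and 15.5%. Members with a UMI of either gene were 41.0% and 46.5% of the class in HET, against 47.5% and 43.3% in COP1 KO. This make-up was close in the 2 genotypes, with overlapping values.

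From 1 marker upward, barcodes with more CGE markers held Meis2 less often, in all 4 libraries. Among barcodes that met every other condition, those with exactly 2 markers, just inside, numbered 57 and 52 in HET, against 52 and 61 in COP1 KO. Those with 1 marker, just outside, numbered 131 and 121 against 155 and 156. Meis2 was found in 42.3% to 49.1% of the 2-marker barcodes of the 4 libraries and in 59.5% to 64.5% of the 1-marker barcodes.

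At 3 markers Meis2 was found in 16.2% and 18.2% of barcodes in HET, against 11.1% and 30.4% in COP1 KO. At 4 markers it was found in 9.52% of 21 barcodes in HET 1 and in none of 13, 10 and 12 in HET 2, COP1 KO 1 and COP1 KO 2, which allows up to 23.1%, 30.0% and 25%. Npas1 ran the other way, from 3.21% to 9.03% at 1 marker to 27.8% to 45.9% at 3 markers. At 4 markers Npas1 was at 23.8% and 46.2% in HET 1 and HET 2 and at 20% and 50% in COP1 KO 1 and COP1 KO 2, lower than at 3 markers in HET 1 and COP1 KO 1. Depth was similar, with median counts per library of 2495.5 to 3245 at 2 markers and of 2350 to 3079 at 3 markers. Members with exactly 2 markers were 46.7% and 51.5% of the class in HET, against 65.0% and 62.9% in COP1 KO, so the COP1 KO sums drew more on them.

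**Figure D3:**
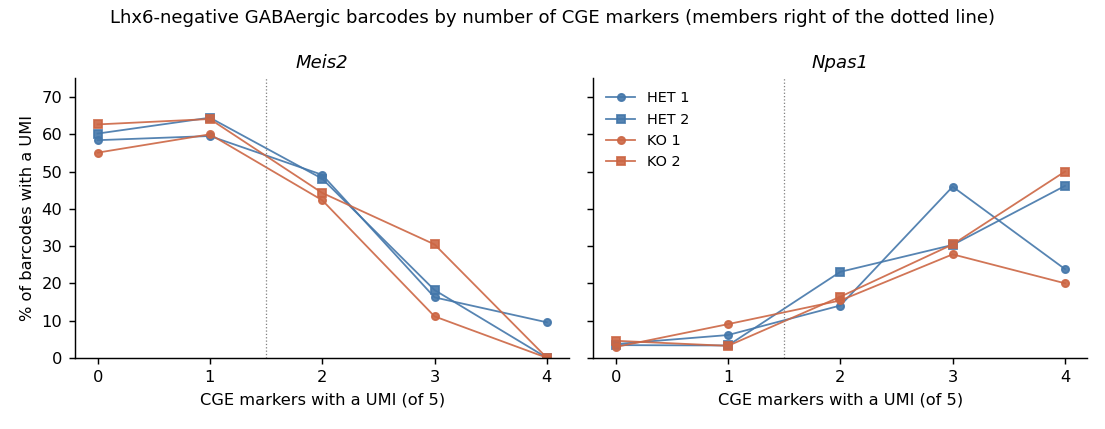
Share of Lhx6-negative GABAergic barcodes with a UMI of Meis2 (left) or Npas1 (right) (%, y axis) by the number of CGE markers detected (x axis, 0 to 4 of 5); lines are libraries (blue HET, orange COP1 KO, marked KO; circles replicate 1, squares replicate 2), and members lie right of the dotted line. Meis2 drops from 59.5% to 64.5% at 1 marker to at most 9.52% at 4 markers in all 4 libraries.

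Split by Meis2 and Tshz1, the members also differed in some genes the split did not use. Npas1 was found in 8% to 14.3% of members with Meis2 or Tshz1 and in 26.2% to 44.4% of those without, and Htr3a in 21.4% to 40.4% against 56.4% to 76.4%. Foxp2, a forkhead factor of the lateral eminence, was found in 12.8% to 28.9% against 1.85% to 3.64%. The ranges of the 4 libraries did not overlap for any of these genes.

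Pairs of markers overlapped unevenly. The commonest pair was Htr3a with Nr2f2 in 161 of 400 members, followed by Prox1 with Nr2f2 in 157 and Sp8 with Nr2f2 in 156. Adarb2 with Prox1 was the rarest in 36. Each barcode counted here shares its library with many others, so these counts describe the 4 libraries together.

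Rfwd2 (the older symbol of Cop1, chromosome 1, 159232156 to 159354872 in GRCm38.p6), the gene named in the genotype, was not lower in the COP1 KO libraries. Members held 10.3 and 42.5 CPM in HET and 31.1 and 40.9 CPM in COP1 KO. The difference was 0.52 ± 0.56 (log2, SE; edgeR quasi-likelihood adjusted p = 0.915). The libraries read the 3′ ends of transcripts and the labels do not say which exons were deleted, so these counts do not check the genotype labels.

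Counts were summed per library and compared between genotypes with edgeR's quasi-likelihood test. Of 6276 genes tested in the members, 10 passed an adjusted p of 0.05 (0.159%), 8 higher (0.127%) and 2 lower (0.0319%) in COP1 KO. At an unadjusted p of 0.05 the count was 444 (7.07%), 232 higher (3.7%) and 212 lower (3.38%). The groups did not overlap for 2274 genes (36.2%), 1080 higher (17.2%) and 1194 lower (19.0%), so a lack of overlap is common in this design. DESeq2 called 1 gene (0.0159%), Ccnd2. Over all genes tested the median difference was 0.01 on the log2 scale.

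Cyclin D2 (Ccnd2, chromosome 6, 127125162 to 127152188) fell in COP1 KO. Its levels were 1271 and 1462 CPM in HET 1 and HET 2 and 738 and 727 CPM in COP1 KO 1 and COP1 KO 2, with means of 1367 ± 135 and 733 ± 7.48 CPM (SD, n = 2 each). The difference was -0.89 ± 0.14 (log2, SE; edgeR adjusted p = 0.00948). Both COP1 KO libraries were low and the groups did not overlap. Cyclin D2 drives the passage from G1 to S phase and is made by dividing progenitors of the basal forebrain.

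The share of members with a Ccnd2 UMI overlapped between genotypes, at 38.5% and 44.6% in HET, against 40.0% and 36.1% in COP1 KO. Members with at least 10 Ccnd2 UMIs numbered 16 and 14 in HET, against 6 and 8 in COP1 KO. The largest single barcode held 11% to 13.7% of the Ccnd2 UMIs in each library, so no barcode carried the level alone.

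Most Ccnd2 lay in members with Meis2 or Tshz1. There it stood at 2388 and 2530 CPM in HET and at 987 and 1283 CPM in COP1 KO, without overlap. In members without either gene it was at 431 and 443 CPM against 455 and 199 CPM, which overlapped. By marker number, 2-marker members held 2468 and 2476 CPM in HET and 801 and 998 CPM in COP1 KO, and members with 3 or more markers held 226 and 400.2 CPM against 599 and 198 CPM. Among 2-marker members a Ccnd2 UMI was found in 57.9% and 57.7% in HET, against 38.5% and 42.6% in COP1 KO. The difference between these subsets was not tested.

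The Ccnd2 call did not hold in every subset or without every library. With Meis2 or Tshz1 barcodes removed the difference was -0.52 (edgeR adjusted p = 0.564), and with at least 3 markers required it was 0.20 (adjusted p = 0.967). With the rule applied to counts thinned to 2000 per barcode the difference was -0.04 (edgeR adjusted p = 0.969). Without COP1 KO 1 it was -0.91 (adjusted p = 0.0877) and without COP1 KO 2 -0.85 (adjusted p = 0.0968).

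Growth-associated protein 43 (Gap43, chromosome 16, 42248552 to 42340651), a protein of growing axon tips, rose. Its levels were 328 and 317 CPM in HET and 524 and 754 CPM in COP1 KO, with means of 323 ± 7.61 and 639 ± 162 CPM (SD, n = 2 each). The difference was 1.01 ± 0.16 (log2, SE; edgeR adjusted p = 0.01). COP1 KO 2 was the highest, and without it the difference was 0.74 (edgeR adjusted p = 0.168).

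Gap43 was found in 36.9% and 30.7% of members in HET, against 41.2% and 30.9% in COP1 KO. Without the barcode richest in Gap43 in each library the levels were 243 and 274 CPM against 378 and 572 CPM, still without overlap. That leaves other rich barcodes in, as the richest of COP1 KO 2 held 70, 47, 28 and 20 of its 258 Gap43 UMIs. The richest held 36, 11, 11 and 8 of 118 in COP1 KO 1 and 35, 16, 6 and 4 of 128 in HET 1. In HET 2 they held 17, 14, 13 and 13 of 112. In 2-marker members Gap43 was at 269 and 371 CPM in HET and at 678 and 1051 CPM in COP1 KO. In members with 3 or more markers the order turned, with 379 and 261 CPM in HET and 185 and 173 CPM in COP1 KO (-0.88 in the fit, edgeR adjusted p = 0.577). When the rule was applied to counts thinned to 2000 per barcode the difference was -0.52 (edgeR adjusted p = 0.716). The higher level was thus seen among 2-marker members, which were the larger share of the class in COP1 KO, and the part of that share in the result was not tested. With at least 2 of the Dlx and Gad genes required, a filter chosen after seeing the data, the difference was 0.72 (edgeR adjusted p = 0.0703). With Meis2 or Tshz1 barcodes removed it was 1.42 (edgeR adjusted p = 1.35e-05). Gap43 passed the threshold in 13 of 18 alternatives.

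Atp6v1g1 (chromosome 4, 63544765 to 63550701), a subunit of the vacuolar proton pump, rose with a spread over many members. Its levels were 118 and 133 CPM in HET and 271 and 237 CPM in COP1 KO, a difference of 1.01 ± 0.19 (log2, SE; edgeR adjusted p = 0.0427). UMIs of Atp6v1g1 were found in 37 and 42 members in HET, against 40 and 52 in COP1 KO. No member held more than 8 of them. The difference kept its sign in all 18 alternatives tested, at 0.91 to 1.17, but passed the threshold in 9 of them. It was 0.91 without COP1 KO 1 (edgeR adjusted p = 0.548), 1.15 without COP1 KO 2 (adjusted p = 0.125), 0.92 without HET 1 (adjusted p = 0.162) and 1.02 with sex as a covariate (adjusted p = 0.109). The levels did not overlap with or without Meis2 and Tshz1, and in Lhx6-positive interneurons the difference had the same sign at 0.57 ± 0.18 (edgeR adjusted p = 0.722).

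Htr3a (chromosome 9, 48899213 to 48911152), the serotonin-gated channel subunit, was the other gene called lower, but the rule uses it to choose members. Its levels were 538 and 564 CPM in HET and 351 and 289 CPM in COP1 KO. The difference was -0.79 ± 0.15 (log2, SE; edgeR adjusted p = 0.0427), and it passed the threshold in 8 of 18 alternatives. The call was lost without any 1 library, at -0.83 without HET 1 (edgeR adjusted p = 0.0844), -0.75 without HET 2 (adjusted p = 0.0719), -0.93 without COP1 KO 1 (adjusted p = 0.157) and -0.61 without COP1 KO 2 (adjusted p = 0.321). Members with 3 or more markers held 869 and 963 CPM in HET and 570 and 526 CPM in COP1 KO, while 2-marker members held 159 and 183 CPM against 252 and 168 CPM, which overlapped. Htr3a is itself 1 of the markers counted for that split, so these levels describe the choice and do not place the difference in a subset.

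The cannabinoid receptor Cnr1 (chromosome 4, 33923171 to 33948831), typical of later Cck interneurons, missed the threshold. Its levels were 272 and 380 CPM in HET and 147 and 181 CPM in COP1 KO, with a difference of -0.95 ± 0.20 (log2, SE; edgeR adjusted p = 0.0848). Cnr1 UMIs were found in 42.6% and 42.6% of members in HET, against 27.5% and 33.0% in COP1 KO. It was lower in both COP1 KO libraries among members with 3 or more markers too, at 171 and 190 CPM against 336 and 423 CPM. After removal of barcodes with 3 or more markers of other classes (23 and 21 in HET, 13 and 21 in COP1 KO), a filter chosen after seeing the data, Cnr1 was called at -1.10 (edgeR adjusted p = 0.0110). After removal of barcodes with any UMI of 16 genes of other classes, another filter chosen after seeing the data, it was at -0.61 (adjusted p = 0.695), and with the rule on thinned counts at -0.61 (adjusted p = 0.440). It passed the threshold in 4 of 18 alternatives, including that without HET 1 (-1.19, adjusted p = 0.000506).

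**Figure D4:**
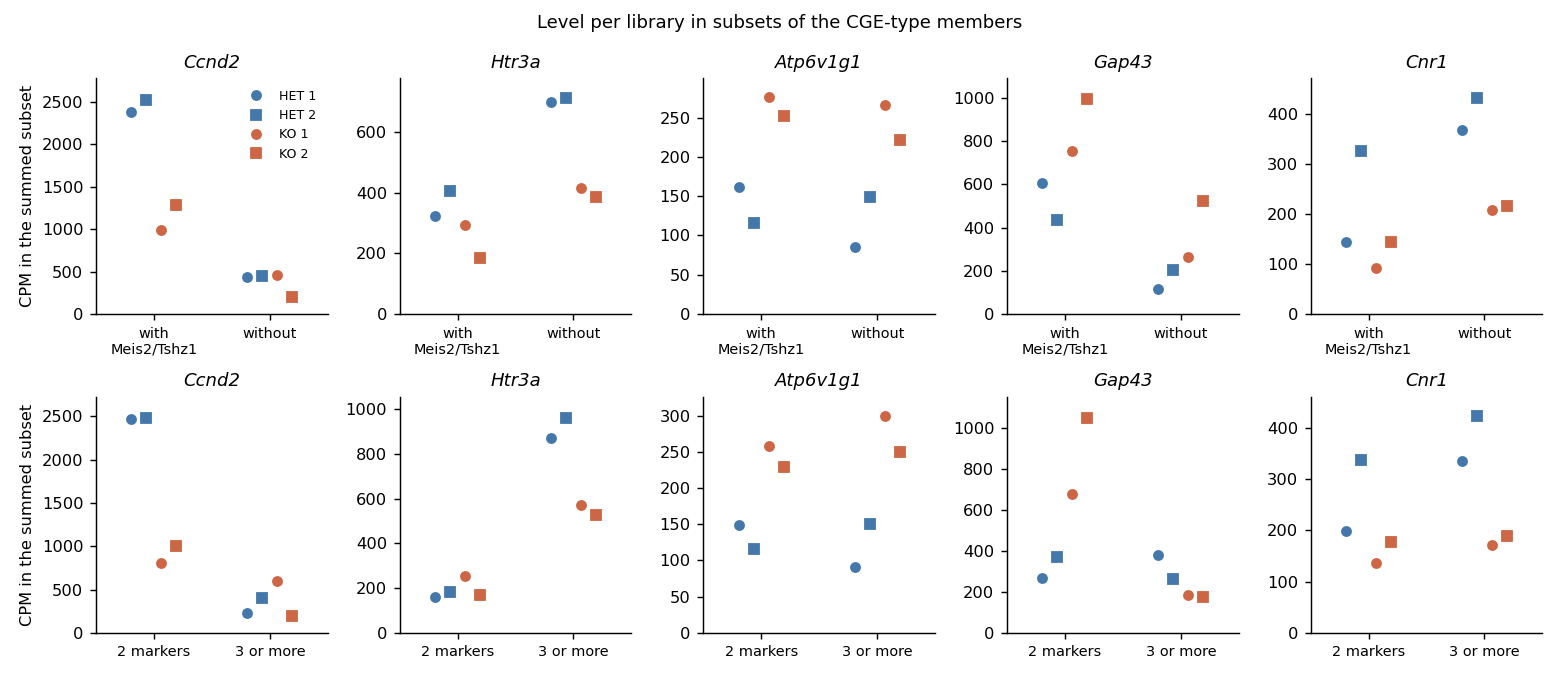
Level (CPM of the summed subset, y axis) of Ccnd2, Htr3a, Atp6v1g1, Gap43 and Cnr1 in members with and without a UMI of Meis2 or Tshz1 (top row) and in members with 2 markers and with 3 or more (bottom row); each point is a library (blue HET, orange COP1 KO, marked KO; circles replicate 1, squares replicate 2). Ccnd2 in the subset with Meis2 or Tshz1 is at 2388 and 2530 CPM in HET and at 987 and 1283 CPM in COP1 KO, and the points overlap in the subset without them. Htr3a is itself among the markers counted for the bottom row.

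The other 6 called genes, all higher in COP1 KO, rested on few barcodes. Vim (chromosome 2, 13574311 to 13582826), the intermediate filament of radial glia, was at 167 and 136 CPM in HET and 391 and 336 CPM in COP1 KO (1.25 ± 0.18 on the log2 scale, edgeR adjusted p = 0.00948). A single barcode held 42 of its 88 UMIs in COP1 KO 1 and another 57 of 115 in COP1 KO 2. Without the richest barcode of each library Vim was at 148 and 123 CPM against 211 and 174 CPM.

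Sst (chromosome 16, 23889573 to 23891342), the somatostatin peptide of MGE interneurons, was at 10.3 and 87.8 CPM in HET and 258 and 260 CPM in COP1 KO (2.45 ± 0.39 on the log2 scale, edgeR adjusted p = 0.00948). In COP1 KO 1 a single barcode held 54 of 58 UMIs, another 67 of 89 in COP1 KO 2, and another 26 of 31 in HET 2. The barcode of COP1 KO 1 also held 25 UMIs of the peptide Npy. Without the richest barcode of each library Sst was at 5.16 and 14.3 CPM in HET and at 18.0 and 65.0 CPM in COP1 KO.

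Pcp4 (chromosome 16, 96467606 to 96525793), a calmodulin-binding peptide of several neuron types, was at 48.7 and 42.5 CPM in HET and 120.0 and 239 CPM in COP1 KO (2.04 ± 0.32 on the log2 scale, edgeR adjusted p = 0.00948). In COP1 KO 2 a single barcode held 62 of its 82 UMIs. The proneural factor Neurog2 was found in 2 and 1 members in HET, against 4 and 3 in COP1 KO, with 2 and 1 UMIs against 10 and 35. Nhlh2 was found in 2 and 1 members against 2 and 2, and Lhx2 in 0 and 3 against 4 and 5. The fitted differences were 4.15 ± 0.63 for Neurog2 (edgeR adjusted p = 0.00948), 3.79 ± 0.67 for Nhlh2 (adjusted p = 0.0236) and 4.12 ± 0.77 for Lhx2 (adjusted p = 0.0385), at HET counts of 0 to 3 UMIs, where a fitted value depends on the prior count. Neurog2, Nhlh2 and Lhx2 are genes of cortical progenitors and early neurons of other lineages.

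Some of the barcodes behind these 6 genes carried markers of other classes besides the called gene. Of the Sst-rich barcodes, that of COP1 KO 2 with 67 Sst UMIs held 8 of Npy, and that of HET 2 with 26 held none. The 2 COP1 KO 2 barcodes richest in Nhlh2 held 43 and 35 UMIs of Reln, 14 and 3 of Tbr1, and 4 each of Trp73, which are Cajal-Retzius genes, beside 1 UMI each of the Dlx and Gad genes. The barcodes with most Vim held 7 and 20 UMIs of Neurog2 and 15 and 38 of Fabp7. Their part in the calls was not tested beyond the filters given here. By edgeR's quasi-likelihood test without COP1 KO 1, the calls of Vim at 1.14 (adjusted p = 0.106), Sst at 2.45 (adjusted p = 0.424), Nhlh2 at 4.17 (adjusted p = 0.131) and Lhx2 at 3.32 (adjusted p = 0.855) were lost. Without COP1 KO 2 those of Sst at 2.48 (adjusted p = 0.215), Pcp4 at 1.42 (adjusted p = 0.231) and Lhx2 at 4.80 (adjusted p = 0.0666) were lost. With at least 2 of the 4 Dlx and Gad genes required, a filter chosen after seeing the data, 2 genes were called, Ccnd2 and Sst. With barcodes removed that held 3 or more markers of radial glia, excitatory neurons or Cajal-Retzius cells, 7 genes were called, 4 of them among the 10 (Atp6v1g1, Gap43, Htr3a and Sst), and Ccnd2 was at -0.66 (edgeR adjusted p = 0.463).

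Summed over whole lists, some other classes' markers were substantial in the members. The 11 excitatory genes summed to 338 and 368 CPM in HET and to 667 and 631 CPM in COP1 KO, of which Bcl11b, a factor that interneurons also use, made up 277 and 337 against 489 and 391 CPM. The 11 radial glia genes summed to 1738 and 884 CPM against 1271 and 1399 CPM, and Fabp7 in HET 1 came to 276 of 297 UMIs from 1 barcode. In Lhx6-positive interneurons the radial glia genes summed to 275 to 622 CPM and the dorsal lateral eminence genes to 191 to 255 CPM. A UMI of any radial glia gene was found in 66.4% to 73.2% of members. The 13 MGE genes summed to 777 and 836 CPM against 942 and 894 CPM, and the 11 dorsal lateral eminence genes to 910 and 875 CPM against 987 and 894 CPM. Microglia genes summed to 10.3 to 14.2 CPM and vessel genes to 5.13 to 8.89 CPM, with 6 of the 8 vessel genes at 0 in each library. The excitatory and the MGE lists had both COP1 KO libraries above both HET libraries, as did 17.2% of single genes tested. Of the UMIs of the MGE list, Sst made up 4 of 303 and 31 of 295 in HET 1 and HET 2. In COP1 KO 1 and COP1 KO 2 Sst made up 58 of 212 and 89 of 306, most of them from 1 barcode in each library. The part of these lists in the calls was not tested.

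**Figure D5:**
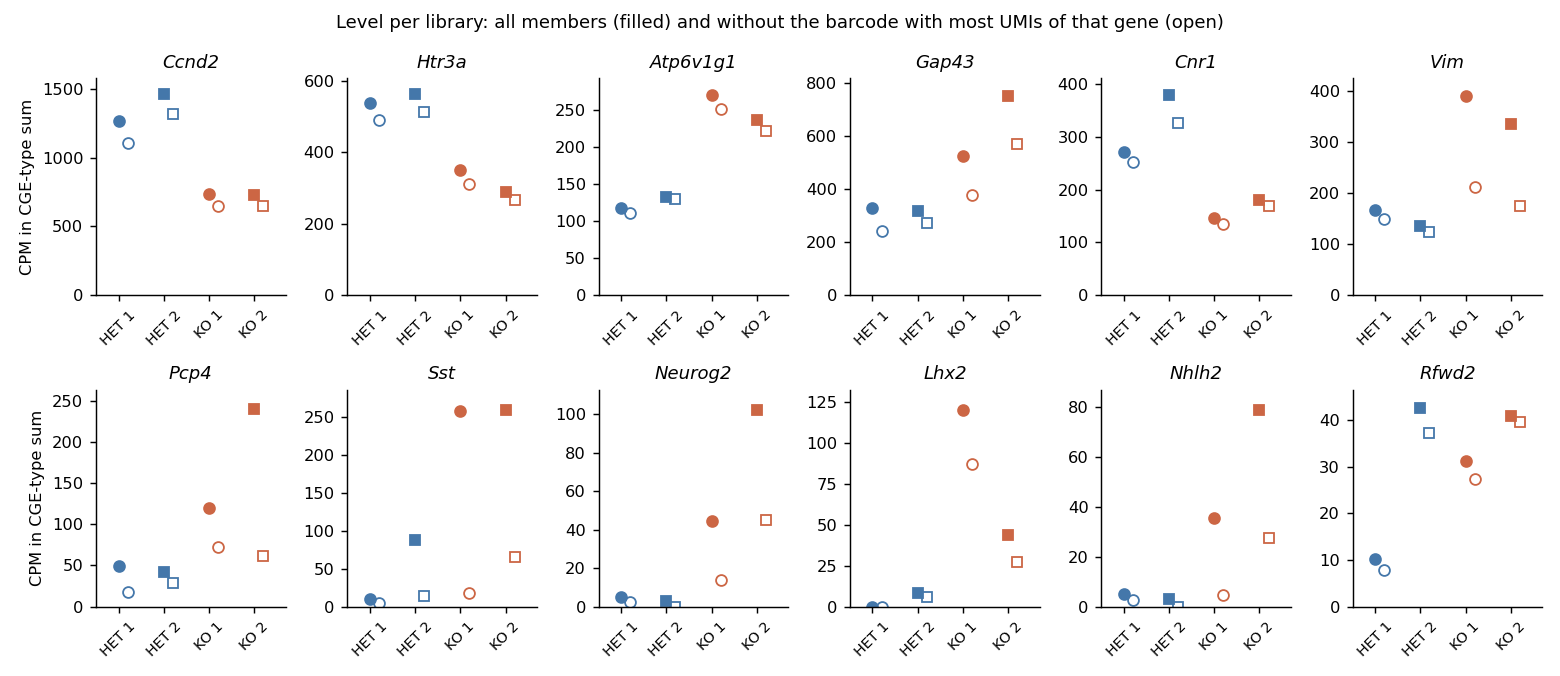
Level (CPM of the CGE-type sum, y axis) of the 10 called genes, Cnr1 and Rfwd2 per library (x axis; blue HET, orange COP1 KO, marked KO; circles replicate 1, squares replicate 2), for all members (filled) and without the barcode with most UMIs of that gene (open). Ccnd2, Htr3a, Atp6v1g1 and Cnr1 barely move without that barcode, while Sst drops from 258 and 260 CPM to 18.0 and 65.0 CPM in COP1 KO and Vim from 391 and 336 CPM to 211 and 174 CPM.

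The genes that make and handle GABA did not pass the test. Of 11 such genes outside the rule, all were tested, none was called, 5 were higher and 6 lower in COP1 KO, and the median difference was -0.07 on the log2 scale. Dlx6os1, the RNA transcribed opposite Dlx6, was at 1089 and 986 CPM in HET and 853 and 789 CPM in COP1 KO (-0.33 ± 0.14, edgeR adjusted p = 0.667). Slc32a1, the vesicular GABA transporter, was at 241 and 201 CPM against 182 and 158 CPM (-0.39 ± 0.19, edgeR adjusted p = 0.717). Both were non-overlapping, as were 36.2% of all genes.

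Sp9, a transcription factor of migrating interneurons, overlapped between genotypes. It was at 884 and 751 CPM in HET and 733 and 806 CPM in COP1 KO.

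In the CGE programme outside the rule, 12 of 22 genes were tested and none was called, with a median difference of -0.11 on the log2 scale, 4 higher and 8 lower. Npas1 was at 218 and 195 CPM in HET and 124 and 152 CPM in COP1 KO (-0.55 ± 0.20, edgeR adjusted p = 0.608). Nr2f1 and Cxcl14 overlapped, with differences of -0.08 ± 0.16 and -0.01 ± 0.21. Reln was at 48.7, 51.0, 17.8 and 239 CPM in the order HET 1, HET 2, COP1 KO 1 and COP1 KO 2, and the 2 Reln-rich barcodes of COP1 KO 2 held 43 and 35 of its 82 UMIs. Pnoc, the precursor of nociceptin, was at 82.0 and 96.3 CPM against 66.7 and 43.8 CPM (-0.73 ± 0.33, edgeR adjusted p = 0.686).

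Genes of interneuron migration and guidance were close to even. Of 27 genes 15 were tested and none was called, with a median of -0.04 on the log2 scale. Dcx, the microtubule protein of migrating neurons, was at 687 and 629 CPM in HET and 711 and 622 CPM in COP1 KO. The neuregulin receptor Erbb4 was at 149 and 133 CPM against 124 and 111 CPM (-0.27 ± 0.22, edgeR adjusted p = 0.877). Cdk5r1, the activator of the kinase Cdk5, was at 879 and 892 CPM against 631 and 777 CPM (-0.31 ± 0.14, edgeR adjusted p = 0.686). The chemokine receptors Cxcr4 and Ackr3 were too low to be tested, at 15.4 CPM or less in every library.

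Among genes of neuronal maturation, 15 of 19 were tested. Of these 1, Gap43, was called higher, beside 8 of 6276 genes overall (0.127%). The median difference was 0.09 on the log2 scale. In COP1 KO 12 of the 15 were higher, beside 3192 of 6276 over all genes tested. The groups did not overlap for 3 maturation genes higher and 3 lower in COP1 KO, beside 17.2% higher and 19.0% lower of all genes tested. Stmn2, a tubulin-binding protein of growing neurites, was at 2256 and 2017 CPM in HET and 1969 and 2553 CPM in COP1 KO. The synaptic protein Snap25 was at 94.8 and 105 CPM against 88.9 and 114 CPM. Both overlapped between genotypes.

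Of the neurotransmitter receptors 9 of 21 were tested, and Htr3a, a rule gene, was the 1 called, beside 10 of 6276 genes overall (0.159%). The glutamate receptor subunit Gria2 was at 282 and 281 CPM in HET and 200 and 237 CPM in COP1 KO (-0.34 ± 0.16, edgeR adjusted p = 0.710). The median over the 9 receptors was 0.05 on the log2 scale.

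Among genes of cell cycle control, D cyclins and antiproliferative genes together, 5 of 8 were tested. Ccnd2 was the 1 called, beside 10 of 6276 genes overall (0.159%). The median was -0.32 on the log2 scale. The list mixes genes that drive and that stop the cycle, so its median has no single direction for the cycle. Cdkn1b, a kinase inhibitor that stops the cycle, was at 146 and 102 CPM in HET and 62.2 and 84.7 CPM in COP1 KO (-0.72 ± 0.28, edgeR adjusted p = 0.660). Btg1, an antiproliferative factor, was at 405 and 394 CPM against 387 and 459 CPM and overlapped. The rule bars barcodes with more than 1 of 6 genes of dividing cells, and it has no condition on other progenitor genes.

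The partners and substrates of COP1 did not pass the test in the members. Of 11 ligase genes 7 were tested and none was called, with a median of -0.08 on the log2 scale. Ddb1, the adaptor that links COP1 to its cullin, was at 169 and 176 CPM in HET and 116 and 134 CPM in COP1 KO (-0.44 ± 0.21, edgeR adjusted p = 0.700). Of 9 substrate genes 2 were tested. Jun was at 841 and 711 CPM against 680 and 564 CPM (-0.32 ± 0.15, edgeR adjusted p = 0.700), and Etv1 at 41.0 and 48.2 CPM against 8.89 and 20.4 CPM (-1.47 ± 0.51, edgeR adjusted p = 0.585). Both were lower in both COP1 KO libraries than in both HET libraries, as were 19.0% of all genes tested. Transcript counts do not measure protein.

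Of 16 genes induced by AP-1 or injury, 4 were tested and Vim was the 1 called, beside 10 of 6276 genes overall (0.159%). Of those tested, 3 were higher in COP1 KO and 1, Rcan1, was lower at -0.13 on the log2 scale. The annexin Anxa2 was at 7.69 and 2.83 CPM in HET and 35.6 and 32.1 CPM in COP1 KO (2.57 ± 0.69, edgeR adjusted p = 0.358), in 3 and 1 members against 7 and 8. The galectin Lgals1 was at 12.8 and 28.3 CPM against 44.4 and 55.5 CPM (1.32 ± 0.47, edgeR adjusted p = 0.614). A single barcode held 12 of its 19 UMIs in COP1 KO 2 and another 5 of 10 in COP1 KO 1. The richest held 3 of 5 in HET 1 and 3 of 10 in HET 2. Of 17 genes of cholesterol synthesis 13 were tested and none was called, with a median of 0.06 on the log2 scale.

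Whether the genotype difference was particular to CGE-type members was tested against Lhx6-positive interneurons of the same libraries. In 1 model of both classes, in which each library formed a block, the term for the difference between their genotype effects was called for 14 of 8614 genes (0.163%), 10 higher (0.116%) and 4 lower (0.0464%), with 5.11% at an unadjusted p under 0.05. Genotype alone called no gene of 9121 in Lhx6-positive interneurons by edgeR's quasi-likelihood test, where 555 (6.08%) had an unadjusted p under 0.05. Gap43 was at 864 and 1086 CPM in HET and 866 and 1088 CPM in COP1 KO in that class, and the term was 0.96 ± 0.16 (log2, SE; edgeR adjusted p = 0.00117), or 0.83 without COP1 KO 2 (adjusted p = 0.0798). For Ccnd2, at 145 and 69.3 CPM against 95.9 and 114 CPM in Lhx6-positive interneurons, the term was -0.91 ± 0.24 and missed the threshold (edgeR adjusted p = 0.187). Cnr1 likewise missed it at -1.04 ± 0.26 (edgeR adjusted p = 0.145).

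Against Neurod6-positive excitatory neurons the term was called for 20 of 14069 genes (0.142%), 12 higher (0.0853%) and 8 lower (0.0569%), with 4.9% at an unadjusted p under 0.05. Genotype alone called no gene of 14512 in that class by edgeR's quasi-likelihood test, where 1376 (9.48%) had an unadjusted p under 0.05. Ccnd2 was at 113 and 128 CPM in HET and 154 and 138 CPM in COP1 KO in excitatory neurons, and the term was -1.19 ± 0.11 (edgeR adjusted p = 1.85e-24). Cnr1 was at 182 and 187 CPM against 191 and 191 CPM there, and the term was -1.02 ± 0.18 (edgeR adjusted p = 1.78e-05). For Gap43 the term was 1.03 ± 0.14 (edgeR adjusted p = 1.12e-10), and for Atp6v1g1 it was 0.45 ± 0.20 and missed the threshold (edgeR adjusted p = 0.931). Both comparisons use the same CGE-type sums, so they are not independent of each other. In each, 1 model set a gene's dispersion over the sums of both classes, and the excitatory sums were far deeper, at 13753722 to 14424549 counts. For Ccnd2, Cnr1 and Gap43 the SE of the term against excitatory neurons was below that of the CGE-type difference alone. Those SEs and adjusted p-values therefore do not measure the spread between mice in CGE-type members.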

How the data were processed

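Single-cell RNA-seq (10x 3′ chemistry, papain-dissociated cells, 1 HiSeq4000 lane per library, per the labels' protocols) of 4 libraries was deposited by the authors as whole-number UMI counts per gene and barcode. The submitters' processing notes name GSNAP and the builds GRCm38 and mm10; the counter, annotation and barcode calling were not given in the sources used here. Each matrix had 36528 rows, of which 3065 carried numbers in place of names (1.69% of counts), and 40 copies of identical rows were left out. Coordinates are RefSeq's for GRCm38.p6. Counts of members were summed per library (225844 to 391613 counts) and fitted with edgeR 4.0.16 (R 4.3.3; TMM, filterByExpr, quasi-likelihood test, Benjamini-Hochberg adjustment, threshold 0.05; SE from the log2 change and F). The script was tested on simulated data. The class-by-genotype term was fitted over 8 sums with the library as a block. Doublets were scored with Scrublet in scanpy 1.11.5 and not removed in the values reported. Named genes were the rule's genes, every called gene, Rfwd2, members of gene lists ordered by role, and the 5 genes with the smallest p of each class-by-genotype term. The members and lists were chosen with earlier results of these data known. Alternatives were DESeq2 1.42.0, other normalizations, filters and marker thresholds, sex as a covariate and leaving out each library; 3 further filters on barcodes, members counted at equal depth and levels without the richest barcode were added after seeing the data. Some genes of the lists are not reported here.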

Additional observations from a re-analysis of the deposited data

Results flagged for a closer look

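For 10 gene effects the genotype difference in CGE-type members differed from that in another class of the same libraries by the class-by-genotype term of edgeR's quasi-likelihood test, each as a log2 value. Against Lhx6-positive interneurons these were Gap43 at 0.96, Nhlh2 at 7.48, Pcp4 at 1.69, Fabp7 at -2.84 and Hbb-bs at -3.20. Against Neurod6-positive excitatory neurons they were Ccnd2 at -1.19, Sst at 2.76, Neurog2 at 4.36, Pcp4 at 2.32 and Fabp7 at -1.89.

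For Hbb-bs the difference lay in the Lhx6-positive class. This hemoglobin gene was at 138, 105, 156 and 140.0 CPM in the members of HET 1, HET 2, COP1 KO 1 and COP1 KO 2, and at 159, 161, 4462 and 141 CPM in their Lhx6-positive interneurons. For Fabp7, a fatty acid binding protein of radial glia, a single HET 1 member held 276 of 297 UMIs. Nhlh2 rested on 2 and 1 members in HET and 2 and 2 in COP1 KO.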

How the results depend on the processing

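No paired analysis was possible because the labels give no replicate numbers, and those used here only name libraries. The fit with sex as a covariate sets HET 1 beside COP1 KO 1 and HET 2 beside COP1 KO 2, as a block on these numbers would. The lower CGE-type share in COP1 KO kept its direction in all 14 alternatives. Against 10 called genes, 1 was called by DESeq2, 5 with sex as a covariate, 44 with no filter on low counts, 2 with at least 2 Dlx and Gad genes, and 0 with at least 3 markers (edgeR, of 3394 genes, 208 with an unadjusted p under 0.05); leaving out 1 library gave 4 (without COP1 KO 1) to 34 (without HET 2), with 20 without HET 1 and 7 without COP1 KO 2. Ccnd2 turned to 0.20 and Gap43 to -0.88 with at least 3 markers, and Gap43 to -0.52 with the rule after thinning, where Ccnd2 was at -0.04. That rule applies its bars on other genes to thinned counts, so it admits barcodes that the full counts exclude. Against Lhx6-positive interneurons 14 calls became 22 with no filter, 5 without barcodes of other-class markers (Pcp4 -0.17), and 9 to 19 without 1 library; against excitatory neurons 20 became 8 without such barcodes (Neurog2 -0.50) and 12 to 22 without 1 library. The causes were not tested. With 2 libraries a genotype and 80 to 122 members each, shares and genes at few UMIs are limited by counting error.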
